A study of Mus musculus with 6 samples.

Results

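Interleukins, colony-stimulating factors and their receptors were examined in LSK-SLAM cells, a bone marrow population enriched for HSC, after 2 rounds of transplantation. Members were all non-control probes of the array whose gene name is an interleukin, an interleukin receptor or a member of the IL-1 family, together with Csf1, Csf2, Csf3, their receptors, Il6st, Kitl, Thpo, Lif and Lifr. This rule, which uses names and no measured value, took 120 of 39429 probes, which stand for 92 of 31791 gene names, 46 ligands and 46 receptors. All 120 probes matched a gene of RefSeq, in which the array's Il28b and Il28ra are now called Ifnl3 and Ifnlr1.

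Compared were 2T-WT with 2T-p190-B-/- cells of the LSK-SLAM phenotype (Lin- Sca-1+ c-Kit+ CD150+ CD48-), with 3 arrays per genotype. p190-B is a GTPase-activating protein, and since mice without it die before birth, the donor cells were fetal liver cells of p190-B-/- or WT littermates. These CD45.2 cells had been transplanted with CD45.1 competitor marrow into lethally irradiated CD45.1 mice, and the marrow of those recipients had been passed to lethally irradiated secondary recipients (2T). Both groups therefore share irradiation, competitor marrow, the kind of host and serial passage, and they differ in the genotype of the donor cells, a constitutive loss in every donor cell type. The sort described in the labels names no gate on CD45.2, so that the share of donor cells on an array is not given. The study describes cells taken from several separate 2T mice of each genotype in repeated isolations, but neither it nor the labels tie mice to arrays or give the age of the recipients, so that p-values measure the spread between arrays. A list of cytokine genes is of interest here because the study asks how intracellular signals set the fate of HSC.

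Interleukins and colony-stimulating factors are secreted proteins by which blood, stromal and epithelial cells set the survival, division and fate of other cells. Most act through receptors that lack an enzyme of their own and are built from a private chain, which binds the ligand, and a chain shared within a family, such as the common beta chain Csf2rb for IL-3, GM-CSF and IL-5, gp130 (Il6st) for IL-6 and LIF, and the common gamma chain Il2rg for IL-2, IL-4 and IL-7. Janus kinases bound to these chains phosphorylate STAT factors, while receptors of the IL-1 family signal through Myd88 and NF-kB. HSC are known to depend on thrombopoietin and on stem cell factor (Kitl), which binds the receptor Kit, and to respond to IL-3, IL-6 and G-CSF.

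Each level below is the log2 of a probe's processed signal over the 75th percentile of its array, so that 0 is the brightness of a probe at that percentile. A level belongs to 1 probe, since probes differ in brightness for reasons other than the amount of RNA, and a difference is the 2T-p190-B-/- mean minus the 2T-WT mean of 1 probe. A probe was tested if at least 3 of the 6 arrays had it well above background. In a sorted population, fewer cells with a transcript and less of it in each cell cannot be told apart.

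The arrays differed in brightness by genotype. Before scaling, the 75th percentile was 53.9 to 227 for 2T-WT arrays, lowest on replicate 3, and 252 to 385 for 2T-p190-B-/- arrays. After division by it, the median difference over all 25127 probes tested was -0.33, against 1.12 with no scaling and -0.10 after quantile normalization. Counts over all members, receptors and ligands are therefore also set against -0.33, as are the changes of Il17rc and Il17d. Other changes are given as they are. Of these 25127 probes, 15263 read lower in 2T-p190-B-/- after scaling, and every count of lower probes or genes below stands beside that share. The probe for Arhgap5, which encodes p190-B, was above background on 1 of 6 arrays, labelled 2T-p190-B-/- replicate 2, and so checks no label. Of 12 markers of the sorted cells, 9 were tested and 0 had a limma p under 0.05, adjusted or not. Kit was above background on 5 arrays, Ly6a (Sca-1) on 6, and Slamf1 (CD150) and Procr on 0. Markers of B lymphocytes were lower in 2T-p190-B-/- for 6 of 7 tested, of 8 on the list, and their mean level ran from -2.04 to 1.15 on 2T-WT and from -2.61 to -1.50 on 2T-p190-B-/- arrays. The 1.15 was that of 2T-WT replicate 3, where Cd79a read 9.47 against -3.80 and -3.35 on the other 2T-WT arrays, and the mean of the other genes there was -0.04. For T lymphocyte markers, 5 of 6 tested of 7 listed were lower, and their mean level ran from -0.11 to 0.83 and from -0.64 to 1.05. NK cell markers had a mean level of -3.65 to -2.33 and of -4.61 to -3.89, with Klrd1 and Gzmb at background. Of all markers tested, 2 had an unadjusted limma p under 0.05, the monocyte marker Cd14 (-2.17, without overlap) and Epx of eosinophils (2.31, without overlap), which was above background on 3 arrays. The part of these cells in the results below was not tested.

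Members were detected about as often as the array as a whole. Of the 120 member probes, 76 (64 of 92 genes) were well above background on at least 3 arrays, 37 on all 6 arrays (30.8%, against 34.9% of all probes), 60 on 1 to 5 arrays and 23 on none (19.2%, against 16.8%). Ligands were above background on all 6 arrays for 15 of 54 probes and receptors for 22 of 66, while 14 ligand and 9 receptor probes were above it on none. No probe rose above background for 14 of 92 genes. These include Il6, the inflammatory cytokine of the gp130 family, Il7, the lymphoid growth factor, its receptor Il7r, Il5, Il15, Il1a, Il33, Il17a, both subunits of IL-12 (Il12a and Il12b), Il23r and Il10rb. Individual arrays detected 54, 81 and 57 member probes on 2T-WT and 89, 58 and 70 on 2T-p190-B-/-, so that the numbers of the genotypes overlap.

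**Figure D1:**
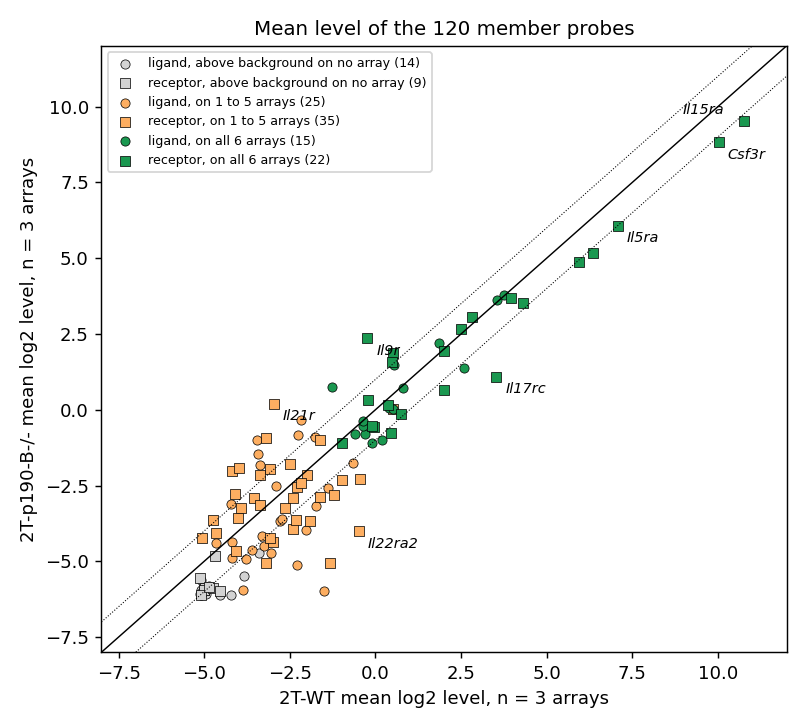
Mean log2 level of the 120 member probes on the 3 2T-WT arrays (x axis) and the 3 2T-p190-B-/- arrays (y axis), with ligands as circles, receptors as squares and colour by the number of arrays on which the probe was well above background. The solid line marks equal levels and the dotted lines a log2 difference of 1, and the 23 probes at background lie below the solid line together with the bright receptor probes.

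No member passed the adjusted threshold between the genotypes. With limma, 0 of 76 tested member probes, which stand for 64 genes, had an adjusted p under 0.05, as did 0 of 25127 probes in all (0.0%). Their smallest adjusted p was 0.638. At an unadjusted limma p under 0.05 there were 7 member probes (9.21%, against 6.58% of all probes), 5 higher (3.19% of all probes) and 2 lower (3.39%). These 7 were probes of Il22ra2, Il17rc, Csf2rb, Il21r, Il9r, Il16 and Il2. Of them, 4 (Il22ra2, the dim Csf2rb probe, Il21r and Il2) were above background on only 1 array of the genotype in which they read lower, and so passed the filter through the genotype in which they were high, which bears on the count. The methods' t-test at a p of 0.05 or less with a 2-fold or larger difference (the methods' threshold) took 4 member probes as higher (Csf2rb, Il16, Il2 and Il34), against 2.31% of all probes, and 3 as lower (Il22ra2, Il17rc and Il17d), against 4.11%, and after Benjamini-Hochberg adjustment it took 0. At its unadjusted p alone it took 7 (9.21%, against 7.1%). The 3 arrays of a genotype did not overlap with the other 3 for 17 member probes (22.4%, against 16.3% of all), 6 higher (4.53%) and 11 lower (11.7%). With 3 arrays against 3, the smallest p of an exact permutation test is 0.1.

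The members lay close to the whole array. Their median difference was -0.27, with 48 of 76 probes lower in 2T-p190-B-/-, but only 37 of 76 lay below the median of all probes. Receptors had a median of -0.50 over 47 probes, 32 of them lower and 25 below the median of all probes. Ligands had a median of -0.08 over 29 probes, 16 of them lower and 12 below the median of all probes. After quantile normalization the 2 medians were -0.07 for receptors and -0.02 for ligands. Of the 76, 39 had passed the filter with 3 to 5 arrays. The 23 probes at background on every array were not tested, and all 23 read lower in 2T-p190-B-/- after scaling, by a median of -0.98, while their unscaled median was 0.48 higher. No member tested was below background on all arrays of a genotype.

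Sequences are shown for the bright probes that hold a repeat stretch and for 4 genes whose 2 probes differed in sign or size (Il15ra, Il9r, Il17rc and Csf2rb), as 30 bases of each 60-base probe, read 5′ to 3′ as the array's design gives them. The genome build of the positions is mm9, and which exon or untranslated part a probe lies in was not examined. Capitals mark the GT run or, in the Csf3r probe, the 13 bases that were searched for, and probes with no capitals hold neither of those 2 stretches. Lower-case bases can be shared with other genes too. The Csf3r probe has a run of at least 15 bases in common with 10 probes of other genes, so that the capitals there do not mark the whole shared part.
Il15ra, bright probe, chr2:11655416-11655475, plus strand: atatgtaTGTGTGTGTGTGTGTGTatgtaa
Il15ra, second probe, chr2:11654809-11654868, plus strand: aaaccatggaaacagtaccaatgactgtga
Il4ra, bright probe, chr7:132712550-132712609, plus strand: tgccagcacTGTGTGTGTGTGccacatgga
Csf3r, chr4:125721478-125721537, plus strand: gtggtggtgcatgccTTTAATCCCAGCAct
Il9r, first probe, chr11:32089002-32089061, minus strand: aactgcatgcagcattgtgagctcagagct
Il9r, second probe, chr11:32090499-32090558, minus strand: gacacagtctccgcgtatctctgctaggtg
Il17rc, first probe, chr6:113432655-113432714, plus strand: ttccaccaccagcgacgccgtatcctgcag
Il17rc, second probe, chr6:113433073-113433132, plus strand: gcgaggaatgggacctgggaccctgcacta
Csf2rb, bright probe, chr15:78179504-78179563, plus strand: ctatcagcccatgccccaggcgccagccat
Csf2rb, dim probe, chr15:78181168-78181227, plus strand: tcactcacatgatggcagacatagaatgtg

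Receptors of the stem and progenitor cell cytokines were the best detected family, with 7 of 9 probes above background on all 6 arrays and all 9 tested, 7 lower and 2 higher. Their median difference was -0.76, and it was 0.69 with no scaling. Il3ra, the private chain for IL-3, read 1.76, 2.59 and 1.64 on 2T-WT and 2.63, 1.49 and 1.68 on 2T-p190-B-/- arrays. These values overlap, with a difference of -0.07 ± 0.71 (SE). Csf2ra, the private chain for GM-CSF, read 4.81, 5.48 and -1.88 on 2T-WT and 2.71, 3.42 and 3.07 on 2T-p190-B-/-. The spread of this probe came from 2T-WT replicate 3, the dimmest array, and the difference of 0.26 ± 1.77 became -2.08 without it.

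Csf2rb, the common beta chain, had 2 probes with opposite signs. Its bright probe read 5.62, 5.03 and 2.24 on 2T-WT and 4.92, 3.30 and 2.39 on 2T-p190-B-/- arrays, a difference of -0.76 ± 1.1 with overlap. The dim probe read -4.10, -3.39 and -4.42 on 2T-WT, where 1 of 3 arrays was above background, and -2.20, -1.39 and -2.19 on 2T-p190-B-/-, where 3 of 3 were. For the dim probe the genotypes did not overlap, with a difference of 2.05 ± 0.69 (limma adjusted p = 0.638) that turned to -0.36 with normexp background correction and was 2.12 on the slide that held both genotypes. This probe shares a run of at least 15 bases with the probe of a predicted gene, Gm8829.

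The probes of Csf3r, Il5ra and Csf1r read lower in 2T-p190-B-/- after scaling and higher without it. Csf3r, the receptor for G-CSF, read 9.83, 9.22 and 11.02 on 2T-WT and 8.50, 8.55 and 9.41 on 2T-p190-B-/- arrays, so that 1 array of each genotype overlapped. Its difference was -1.20 ± 0.76, but 0.25 with no scaling and 0.16 after quantile normalization. Il5ra, the private chain for IL-5, read 6.71, 6.57 and 7.91 against 6.15, 5.76 and 6.26, without overlap, a difference of -1.01 ± 0.70 that was 0.44 with no scaling and 0.22 after quantile normalization. Csf1r, the receptor for M-CSF and IL-34, had 3 probes, whose differences were -1.18 ± 0.71, -1.37 ± 0.74 and -0.22 ± 0.69. The first 2 did not overlap, and with no scaling all 3 were higher, by 0.27, 0.08 and 1.23.

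The probes that carry repeats were among the brightest on the whole array. Il15ra, the high-affinity receptor for IL-15, had the brightest member probe, at the 99.7th percentile of all probes, and this probe holds the run of GT units shown above. It read 10.47, 9.78 and 12.07 on 2T-WT and 9.29, 9.34 and 9.94 on 2T-p190-B-/- arrays. Replicate 2 of 2T-WT lay below replicate 3 of 2T-p190-B-/-, so that the genotypes overlap. The difference of -1.25 ± 0.80 was 0.20 with no scaling and 0.15 after quantile normalization. The second Il15ra probe, which lacks the run, read 4.17, 2.10 and 1.25 against 1.96, 3.08 and 2.97, a difference of 0.16 ± 0.91, so that the 2 probes of this gene disagreed in sign. Il4ra, the receptor chain for IL-4 and IL-13, gave a like pair: its GT-bearing probe differed by -1.09 ± 0.75 without overlap (0.36 with no scaling and 0.08 after quantile normalization) and the probe without the run by -0.11 ± 0.74.

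The motif GTGTGTGTGT was held in the sense of the probe by 137 of 39429 probes (0.347%) and on the opposite strand by 72 (0.183%). All 137 were above background on all 6 arrays, with a median level of 10.26, and all 137 read lower in 2T-p190-B-/- after scaling, with a median of -1.40. Without scaling their median difference was 0.05, and after quantile normalization -0.02. The stretch TTTAATCCCAGCA of the Csf3r probe, a sequence of the B1 family of dispersed repeats, was held by 6 probes (0.0152%) and on the opposite strand by 5 (0.0127%). Those 6 had a median level of 8.81 and a median difference of -1.09, and 0.36 with no scaling. Over the 350 tested probes with a level above 8, the median difference was -1.35, and 0.10 with no scaling. These 350 include many of the repeat probes, and a median without them was not computed. For the 8837 probes between -2 and 0 the median was -0.18. The probes of Il5ra and Csf1r hold neither motif. Il5ra lay between levels of 6 and 8, where the median over 387 tested probes was -1.13, and the brightest Csf1r probe between 4 and 6, where it was -0.81 over 849.

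**Figure D2:**
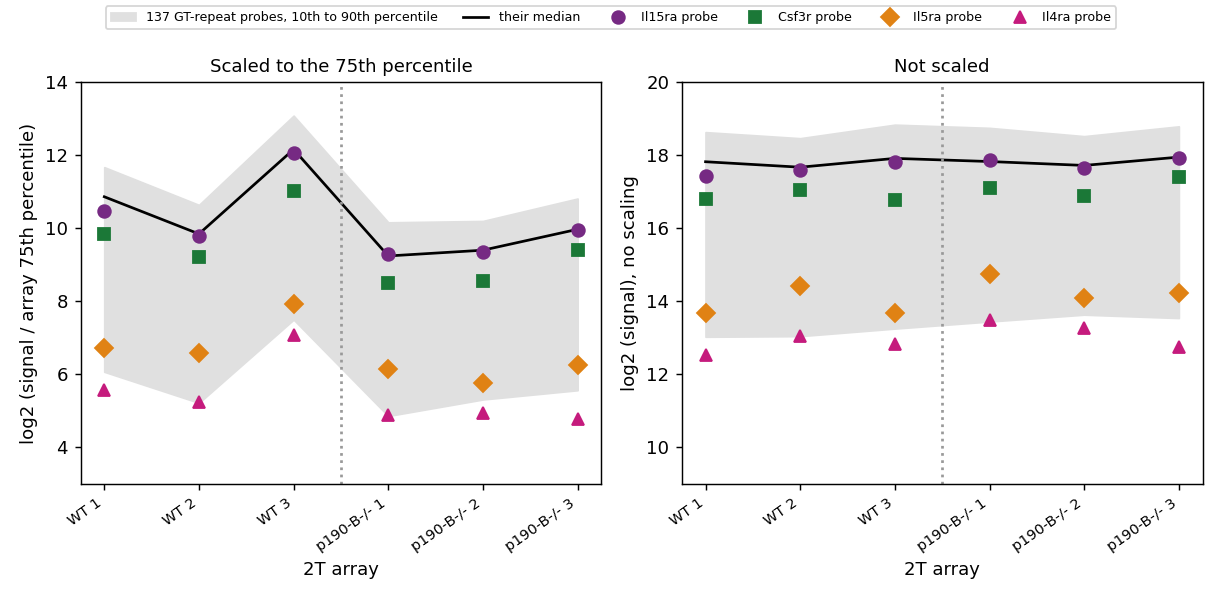
Log2 signal of 4 bright receptor probes on each of the 6 arrays, divided by the array's 75th percentile (left) or unscaled (right), over the 10th to 90th percentile (grey) and median (line) of the 137 probes with a GT repeat. The 4 probes follow the repeat probes on the left, where 2T-WT replicate 3 is highest, and differ little between genotypes on the right.

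**Figure D3:**
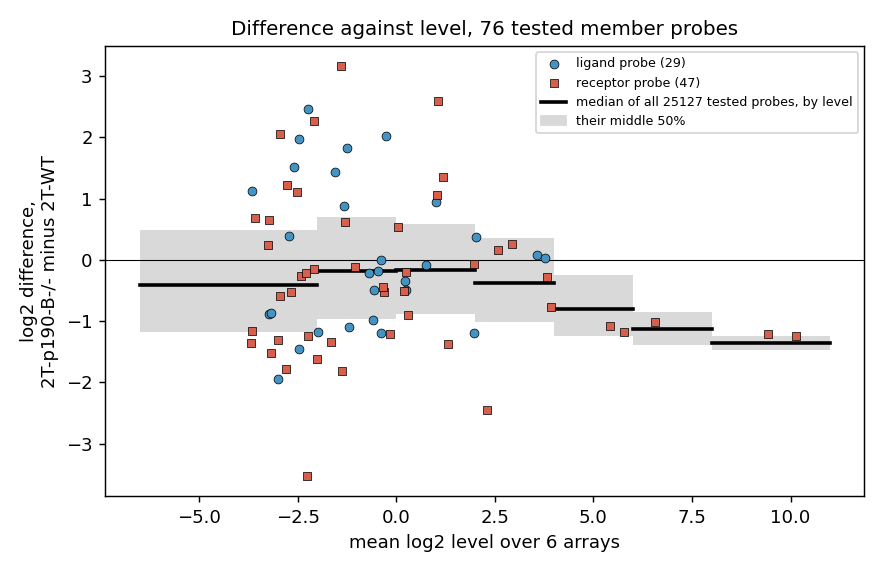
Log2 difference between the genotypes (y axis) against mean log2 level over 6 arrays (x axis) for the 76 tested member probes, with ligands as circles and receptors as squares. The black steps and grey bands give the median and interquartile range of all 25127 tested probes by level, and the bright receptor probes on the right lie on the falling median.

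Ligands of this group were mostly dim. Of 11 probes, 1 was above background on all 6 arrays and 5 were tested, 3 higher and 2 lower. Kitl, the stem cell factor, was that probe, with -0.07, 1.86 and -0.30 on 2T-WT and -0.40, -0.57 and 1.02 on 2T-p190-B-/- arrays, which overlap (-0.49 ± 0.87). Il34, a second ligand of Csf1r, read -2.32, -2.05 and -2.41 against -0.35, -1.73 and -0.39. The genotypes did not overlap, and Il34 was 2.71-fold higher in 2T-p190-B-/- (log2 1.44 ± 0.71), past the methods' threshold but with a limma adjusted p of 0.638. Its difference was 0.12 with normexp and 1.19 on the slide with both genotypes. Thpo, thrombopoietin, had 1 tested probe, above background on 3 arrays, with a difference of 1.12 ± 1.1 that turned to -0.72 with normexp.

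Further receptors outside the list were measured too. Kit, the receptor of Kitl, was above background on 5 arrays and differed by 0.74 ± 1.23, with overlap. Flt3, a receptor of multipotent progenitors, had a probe at -1.11, which was 0.35 with no scaling, and a dimmer one at 0.48.

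In the gp130 family, 11 of 14 probes were tested, 7 lower and 4 higher, and 0 reached an unadjusted limma p under 0.05. The shared chain Il6st itself was above background on 1 of 6 arrays, 2T-p190-B-/- replicate 3, and was not tested. Il6ra, the private chain for IL-6, read -2.95, -2.96 and -1.08 on 2T-WT and -4.11, -3.48 and -3.32 on 2T-p190-B-/- arrays, 2 of 3 above background in each. These did not overlap, and the difference of -1.31 ± 0.79 was 0.14 with no scaling. Il11ra1, the receptor for IL-11, differed by -1.81 ± 1.39, with values from -2.59 to 0.83 on 2T-WT and from -3.80 to 0.55 on 2T-p190-B-/- arrays. Among ligands, Lif, Il27 and Il31 were above background on all 6 arrays, and Lif, which maintains stem cells in culture, differed by -1.19 ± 0.86 and Il27 by 0.02 ± 1.02.

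Receptors of the common gamma chain family included Il21r and Il9r, which both had a probe that read higher in 2T-p190-B-/-. Il21r, the receptor for IL-21, read -3.92, -0.76 and -4.23 on 2T-WT, where only replicate 2 was above background, and -1.31, 0.53 and 1.34 on 2T-p190-B-/-, where all 3 were. Replicate 2 of 2T-WT overlapped with the 2T-p190-B-/- arrays. The log2 difference was 3.16 ± 1.14 (limma adjusted p = 0.638), and no fold is given, since the probe passed the filter through the 2T-p190-B-/- arrays and 2 of 3 2T-WT values were at background. It was 2.11 higher on the slide with both genotypes and 0.66 with normexp, and it ranged from 2.53 to 4.26 when 1 array was left out.

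Il9r, the receptor for the mast cell and T cell growth factor IL-9, depended on the probe. Its first probe read 1.01, 0.26 and -1.97 on 2T-WT and 1.78, 2.04 and 3.24 on 2T-p190-B-/- arrays, above background on all 6 and without overlap. This probe was 6.0-fold higher (log2 2.59 ± 0.94, limma adjusted p = 0.638), 2.76 on the slide with both genotypes and 2.23 with normexp. The second probe read -0.50, -2.62 and 0.20 against -2.29, -3.40 and -1.25, the opposite direction with overlap (-1.34 ± 0.97, and 0.11 with no scaling). The 2 probes lie in the same gene, 1 at each position given above, and whether they measure different transcripts was not examined.

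Il2, the T cell growth factor, was the only one of 7 ligand genes listed with this family besides Il9 to be tested. The list places Il13 and its receptors here too, which is a grouping and not a statement that they use Il2rg. Il2 read -2.46, -3.43 and -4.43 on 2T-WT, with 1 of 3 arrays above background, and -1.08, -1.27 and -2.06 on 2T-p190-B-/-, with 3 of 3. The genotypes did not overlap (log2 1.97 ± 0.77, limma adjusted p = 0.638), but with normexp the difference was -0.08. Other receptors listed with the family did not reach an unadjusted limma p under 0.05, among them Il2rb (-0.90), Il2ra (-1.16), Il13ra1 (-0.58) and Il13ra2 (-0.28). The shared chain Il2rg was above background on 1 of 6 arrays, and Il7r on 0.

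The IL-1 family was thinly measured, with 13 of 27 probes tested and 5 above background on all 6 arrays. Of the 13, 7 were lower and 6 higher, and the median was -0.21. Il1rl1, the receptor for IL-33, had 2 tested probes with differences of -1.21 ± 0.74, without overlap, and -1.25 ± 0.87. Both were higher with no scaling, by 0.24 and 0.20. Il18, which acts on T and NK cells, read without overlap at -1.46 (-0.01 with no scaling), and Il1rl2, the receptor for IL-36, at 1.35. Il1rapl1, an accessory protein known mainly from neurons, differed by -1.78 ± 0.83 with overlap. The main signalling pair of IL-1 was at the limit of detection, since Il1r1 was above background on 1 array and Il1rap by 1 of its 3 probes on 4 arrays (-1.35 ± 0.97, and 0.10 with no scaling). Il18r1, the receptor for IL-18, differed by 0.62 ± 0.93, and Il1b, the inflammatory ligand, by 0.94 ± 0.89 on 6 arrays.

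In the IL-10 and IL-12 families, Il22ra2 read lower on every 2T-p190-B-/- array. Il22ra2 encodes a soluble decoy receptor that binds IL-22 and keeps it from its receptor. It read -2.15, -0.85 and 1.51 on 2T-WT, all above background, and -3.66, -4.16 and -4.23 on 2T-p190-B-/-, where only replicate 1 was above background. The 2 genotypes did not overlap. The log2 difference was -3.52 ± 0.99 (limma adjusted p = 0.638), but the probe passed the filter through the 2T-WT arrays, where it was high, and its size depends on the background level of the 2T-p190-B-/- arrays, so that no fold is given. Within the slide with both genotypes it was -4.24, with normexp -2.25 and with no scaling -2.07, and leaving out 1 array gave -4.35 to -2.52.

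Il22 and Il22ra1, of the same axis, differed by less than their SE. Il22 itself was above background on all 6 arrays with a difference of -0.08 ± 0.92, and its membrane receptor Il22ra1 differed by 0.54 ± 0.98, while the second chain Il10rb was at background. Il23a, the private subunit of IL-23, read -4.41, -1.88 and -4.12 on 2T-WT and 0.07, 0.20 and -3.32 on 2T-p190-B-/- arrays. These overlap, with a difference of 2.46 ± 1.17 that was 0.18 with normexp. The Il23a probe was above background on 1 of 3 2T-WT and 3 of 3 2T-p190-B-/- arrays, and so passed the filter through the genotype in which it was high. Il19, an IL-10 relative, had a tested probe at -1.95 ± 0.95. Over the 2 families 15 of 24 probes were tested, 9 lower and 6 higher.

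Probes for the IL-17 receptors read lower in 2T-p190-B-/- where they could be tested, 4 of 4 tested of 7 in all, with a median of -1.56 that was -0.12 with no scaling. Il17rc, the chain that pairs with Il17ra to bind IL-17A and IL-17F, read 2.75, 3.86 and 3.97 on 2T-WT and 0.89, 0.89 and 1.44 on 2T-p190-B-/- arrays at its first probe. All 6 were above background and the genotypes did not overlap. This probe was 5.46-fold lower (log2 -2.45 ± 0.70, limma adjusted p = 0.638), or -2.12 relative to the median of all probes. It was -3.02 on the slide with both genotypes, -1.62 with normexp and -1.0 with no scaling. The second probe of Il17rc, above background on all 6 arrays too, read 0.66, 2.19 and -1.80 against -0.29, 1.18 and -0.42, a difference of -0.20 ± 1.09 with overlap.

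Il17ra, the shared chain of the family, read -1.65, -1.57 and -0.41 on 2T-WT and -3.39, -3.31 and -1.76 on 2T-p190-B-/- arrays, without overlap (-1.61 ± 0.78, and -0.16 with no scaling). Il17re, the receptor for IL-17C, differed by -1.52 ± 0.91. Of the ligands, Il17d read 2.53, 2.48 and 2.72 against 1.18, 1.38 and 1.58, 2.29-fold lower without overlap (log2 -1.19 ± 0.64). That difference passed the methods' threshold, but it was -0.86 relative to the median of all probes, and 0.26 with no scaling. Its second probe, which had no value on 2T-WT replicate 2, was above background on none of the other 5 arrays, and the tested probe shares a run of 15 bases with the probe of Apcs.

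Il16, a chemoattractant for CD4+ cells released from a larger precursor, read higher on every 2T-p190-B-/- array. Its levels were -0.49, -1.16 and -2.12 on 2T-WT and -0.03, 1.02 and 1.29 on 2T-p190-B-/- arrays, all above background and without overlap. The gene was 4.06-fold higher (log2 2.02 ± 0.77, limma adjusted p = 0.638), with 2.14 on the slide with both genotypes and 1.16 with normexp.

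**Figure D4:**
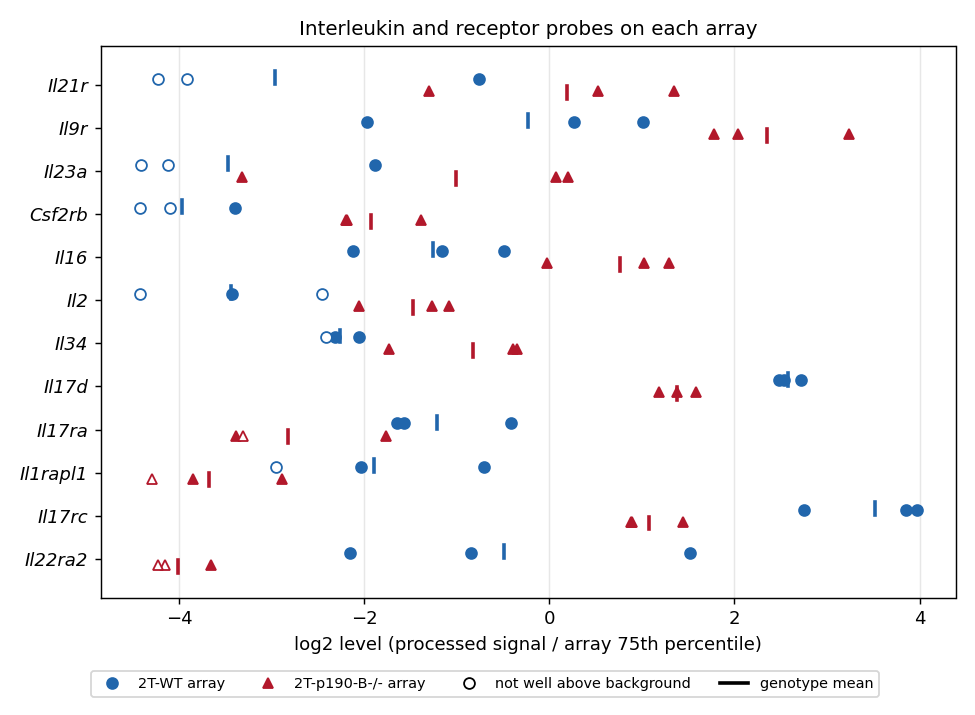
Log2 level on each array (x axis) of the 12 member genes with the smallest p or past the methods' threshold, 1 probe per gene, with 2T-WT as circles, 2T-p190-B-/- as triangles, open symbols where the probe was not well above background and bars for the genotype means. Il22ra2 and Il17rc lie lower and Il9r, Il16 and Il34 higher in all 3 2T-p190-B-/- arrays, while Il21r and Il23a overlap.

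**Figure D5:**
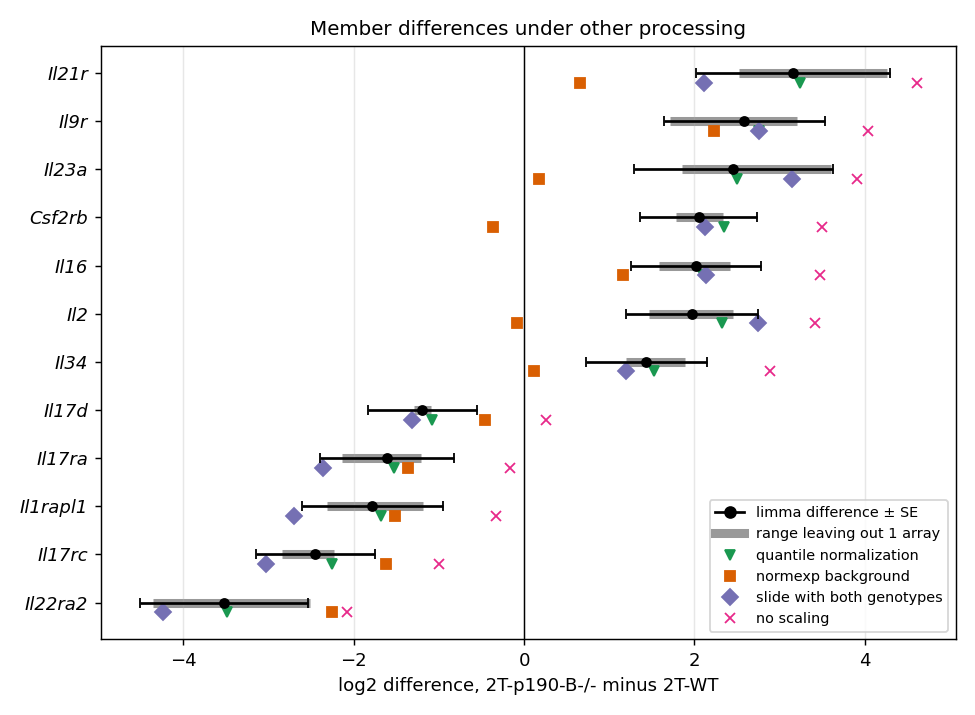
Log2 difference (x axis) of the same 12 genes by limma with its SE (black), with the range when 1 array is left out (grey bar) and under 4 other ways of processing. Il22ra2, Il17rc, Il9r, Il16, Il21r, Il23a, Il34, Il1rapl1 and Il17ra keep their sign in all of them. Of these, Il23a (0.18) and Il34 (0.12) lie near 0 with normexp, and Il1rapl1 (-0.33) and Il17ra (-0.16) with no scaling. Csf2rb and Il2 cross 0 with normexp, and Il17d with no scaling.

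Among 11 genes with more than 1 tested probe, 5 had probes of opposite sign: Csf2rb, Il9r, Il15ra, Il12rb1 and Il28b. The 2 probes of Il28b (Ifnl3) differed by 0.08 and -0.49, and those of Il12rb1 by -0.53 and 0.65. Where probes had the same sign their size could still differ, as for Il17rc. Of the members past the methods' threshold, Il17rc and Csf2rb had a second tested probe, and in neither did that probe pass.

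Genes that carry the signal of these receptors gave no adjusted call. Of 27 names for JAK, STAT and SOCS transducers, 26 were on the array, 20 were tested, 7 higher and 13 lower with a median of -0.58, and 0 reached an unadjusted limma p under 0.05. Jak2 and Stat3, which relay cytokine signals, differed by 0.22 and 0.31. The genotypes did not overlap for 5 of the 20 (against 16.3% of all probes), with Stat5a at 1.42 and Socs6 at 1.29 higher. Jak1 at -1.65, Pias2 at -1.51 and Socs1, an inhibitor of Janus kinases, at -0.52 were lower. Stat5a, a transducer for Csf2rb, was above background on 4 arrays. It read -4.06, -3.43 and -3.21 on 2T-WT against -3.04, -0.35 and -3.05, so that its size came mainly from 2T-p190-B-/- replicate 2. Jak1 was fitted on the 4 arrays with a value, 3 of them above background. It read -1.77 and -0.78 on 2T-WT against -3.53 and -2.31. Fewer arrays separate more easily, so that the 16.3% is no measure for Jak1. Ptpn11, a phosphatase that acts downstream of cytokine receptors, differed by -3.54 with overlap. Cish, a target of STAT5, Socs5 and Stat2 were at background on all 6 arrays. For the adaptors of IL-1 and Toll receptors, 16 of 19 were tested, 6 higher and 10 lower, with a median of -0.27 and again 0 at an unadjusted limma p under 0.05. Of 23 further cytokines and receptors 20 were tested, 8 higher and 12 lower, with a median of -0.25 and 0 at an unadjusted limma p under 0.05. The median of all probes was -0.33, and no test set these lists against it.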

How the data were processed

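Cy3-labelled RNA of LSK-SLAM cells was hybridised to 6 Agilent arrays in a single colour. The authors deposited the scanner output of Feature Extraction 10.5.1.1, in which the processed signal is an intensity, corrected for background and spatial trends and not scaled between arrays, and a table of the same intensity divided by 1 number per array. Control and outlier spots were left out (296 to 509 outlier spots per array) and no spot was saturated. Levels are log2(signal / 75th percentile of its array), with spots of a probe averaged. Probes well above background on at least 3 arrays were fitted with limma 3.58.1 (lmFit, eBayes, R 4.3.3) with no covariate, and p-values were adjusted by Benjamini-Hochberg over the 25127 probes fitted. The SE is limma's. The methods' t-test (Student, two-sided) used the same values, with p of 0.05 or less and a 2-fold difference, limits that the study's gene lists state and its methods do not. The steps were tested on simulated data.

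Groups and replicate numbers came from the labels. Arrays lay on 3 slides: 2T-WT replicate 1 alone on slide 1, 2T-p190-B-/- replicate 3 alone on slide 3, and the other 4 on slide 2. RefSeq (GRCm38.p6) gave only gene names. The members, lists and tests were chosen with earlier results of these data known, and the repeat stretches after the probe sequences had been seen. Genes were named if they are main receptors and ligands of HSC and progenitors, among the 10 smallest limma p, the 5 brightest or past the methods' threshold, and further members were picked from their values as examples. Alternatives were quantile normalization, normexp (offset 50), other filters, the authors' table, robust variance with an intensity trend, a block for slide or for replicate number, leaving out each array, slide 2 alone and, chosen after seeing the data, no scaling. The number of arrays limits the precision. Some genes of the lists are not reported here.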

Additional observations from a re-analysis of the deposited data

How the results depend on the processing

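No alternative gave a member, or any probe, a limma adjusted p under 0.05, nor did the methods' t-test after adjustment, so that the 0 calls were unchanged under all that were run. Other counts moved. The 7 member probes at an unadjusted limma p under 0.05 became 12 with normexp, 12 with slide as a block, 12 on slide 2 alone, 12 with no scaling and 3 over probes above background on all 6 arrays. The 4 past the methods' threshold as higher became 2 with normexp, 2 on slide 2 alone, 1 over probes above background on all 6 arrays and 9 with no scaling, and the 3 as lower became 9 with normexp, 5 with no filter on dim probes and 0 with no scaling. Without overlap, the 6 higher became 3 over probes above background on all 6 arrays and 11 with no scaling, and the 11 lower became 17 with normexp, 18 with no filter, 7 over probes above background on all 6 arrays and 1 with no scaling. Leaving out 1 array gave 4 (without 2T-WT replicate 3) to 8 at the unadjusted p, 1 (without 2T-WT replicate 3) to 4 as higher, with 2 without 2T-WT replicate 2 or 2T-p190-B-/- replicate 1 or 2, and 2 to 5 (without 2T-WT replicate 1) as lower.

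Of 39 probes of named genes, 28 differed by at least their SE, and 12 of those kept their sign in every alternative. Signs turned with quantile normalization for Csf1r (0.018), Csf3r (0.16), Il4ra (0.080), Il15ra (0.15) and Il5ra (0.22), and with normexp for Csf2rb (-0.36), Thpo (-0.72) and Il2 (-0.081). With no scaling they turned for 2 probes of Csf1r (0.27 and 0.079), Csf3r (0.25), Il6ra (0.14), Il1rap (0.10), 2 probes of Il1rl1 (0.20 and 0.24), Il4ra (0.36), Il9r's second probe (0.11), Il15ra (0.20), Il5ra (0.44), Il17d (0.26) and Flt3 (0.35). The cause was not tested. Taking the mean over a gene's probes in place of the brightest left 39 in place of 40 of 64 genes lower.

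With the replicate number as a replicate block, 8 members had an unadjusted p under 0.05 and 0 an adjusted one. Deviations of arrays with the same number correlated at 0.01, 0.02 and 0.09, and those of arrays with different numbers at -0.07 to 0.07. Deviations from a mean of 3 arrays are not independent of each other, so these values cannot decide whether the numbers pair the samples.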
